A study of Mus musculus with 13 samples.

Results

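To describe hypothalamic microglia at steady state, the cells of mice kept on control diet were taken from a plate-based single-cell RNA-sequencing (scRNAseq) experiment and examined on their own. Members were the wells that the authors' table of wells lists as control diet (NC) and as included in their analysis, which gave 722 cells of 2496 wells in all. They lay on 12 of the 13 plates. The mice were C57BL/6J males on standard chow, and the other wells of the series came from mice fed high-fat diet (HFD) for various lengths of time. No engineered allele is named for these mice. Single CD45lo CD11b+ cells were sorted by FACS into wells of 192-well plates, so that any brain myeloid cell with the same surface markers could have entered. The GEO labels give the tissue only as brain, and the hypothalamus is named in the study's methods. The names of the cells carry 4, 9, 10, 14, 16 or 24 weeks beside the letters CT, WT or MG, and the sources used here do not say whether the weeks are an age or a time on diet. The table of wells also gave replicate identifiers. Some of them, such as M1, recur under other letters and weeks in the cell names, and these were counted apart here. This gave 19 identifiers among the control cells. They need not each be 1 mouse, since the identifier on plate 1 covers cells named for 4 and for 10 weeks. Of the 19 identifiers, 5 lay on several plates, and 6 plates held cells of a single identifier.

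Microglia are the resident macrophages of the brain parenchyma. They arise from yolk sac progenitors, depend on signals through the colony stimulating factor 1 receptor, survey the tissue with motile processes, and clear debris through the lysosome and complement. In the healthy brain they express a set of surface receptors and secreted proteins that other macrophages express weakly or not at all. In the mediobasal hypothalamus they lie close to neurons that sense nutrients and to the fenestrated vessels of the median eminence, so their baseline state is the reference for studies of diet.

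The unit of measurement was the unique molecular identifier (UMI), a random tag that lets each captured transcript be counted once. CEL-Seq2, the method used, reads the 3' end of transcripts, so a UMI count does not grow with transcript length and levels of different genes can be compared as molecules. Levels are given as CPM, the UMIs of a gene scaled to a total of 1000000 over the genes in the authors' filtered table, with the mean ± SD over 12 plates. The 722 cells held 1513 to 12356 UMIs each with a median of 2744.5, and 861 to 3852 genes with a median of 1523.5. They were 66.9% of the 1080 control wells, and the 358 wells left out by the authors held at most 1484 estimated transcripts. Plates held 7 to 85 control cells, with the 7 cells on plate 4, and median UMIs per cell of 2104 to 4813. The same 192 well barcodes were used on every plate by design.

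The sorted cells carried the defining markers of microglia. Transcripts of all 4 markers chosen for identity, the purinergic receptor P2ry12, the surface protein Tmem119, the fractalkine receptor Cx3cr1 and the colony stimulating factor 1 receptor Csf1r, were present in 700 cells, or 97.0%, and a cell held a median of 53 UMIs of the 4. At least 3 markers were present in 717 cells. The remaining 5 cells stood apart, and 4 of them lay on plate 7. Of those, 1 cell with 7655 UMIs had 0 marker UMIs beside 1654 UMIs of Ttr, the thyroid hormone carrier transthyretin, and 364 of Enpp2, the lysophospholipase autotaxin, both abundant in choroid plexus. In 2 more, Ttr reached 869 and 458 UMIs beside 2 and 1 marker UMIs. The last held 21 UMIs of B2m and 1 marker UMI, beside 3 UMIs of lymphocyte genes, 2 of monocyte genes and 1 of oligodendrocyte genes. Ttr was not in the filtered table, and its UMIs came from 1 plate, where 21 cells had any. The counts of varying genes and of pairs are given with and without these 5 cells. So are the variation and correlations of the 4 markers and the values of Apoe-rich cells. The levels and detection shares of the markers include the 5 cells.

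Few UMIs of other cell types' markers were found, with several lists only partly in the filtered table. At least 3 UMIs of any 1 of the 9 other types listed were found in 26 cells, or 3.60%, of which 7 lay on plate 11. Oligodendrocyte genes accounted for 19 of these cells, at least 1 UMI of them was in 30.2% of cells, and their summed level over plates ranged from 84.2 to 209 CPM. Genes of border-associated macrophages, the macrophages of the meninges and vessels, summed to between 9.44 and 89.5 CPM, with 1 or more UMIs in 6.51% of cells and 3 or more in 3 cells. Monocyte genes summed to 0 to 43.7 CPM, with Ly6c2 and Chil3 outside the filtered table. The 1 neutrophil gene in the table, S100a9, was seen in 0 of 722 cells. The upper limit, 3 counts, is 0.416% of cells with a UMI of it at this depth, and it does not limit the share of cells that express the gene. Lymphocyte, astrocyte, neuron and endothelial genes reached at least 1 UMI in 3.05%, 3.88%, 6.23% and 10.7% of cells, and ependymal or tanycyte genes in 0.554%. The filtered table held 3 of the 8 lymphocyte genes, 5 of the 7 astrocyte genes (without Gfap and Aqp4), 5 of the 9 neuron genes, 2 of the 6 endothelial genes and 2 of the 6 ependymal or tanycyte genes, so cells marked by the missing members could not be seen. The median depth of 2744.5 UMIs and RNA free in the suspension bear on all of these shares, and their part was not tested.

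The 20 highest genes held messages of the lysosome, of complement, of microglial surface receptors, of actin and of the matrix, beside noncoding and mitochondrial RNA. Cst3, which encodes the cysteine protease inhibitor cystatin C, was the highest protein-coding gene of known function at 24579 ± 4400 CPM (SD, n = 12 plates), with a lowest plate of 16381, a median of 25622 and a highest of 31936. It was the 1 gene with a UMI in every cell. Cx3cr1, the receptor through which neurons signal to microglia, reached 6790 ± 1241 (4664 to 8492), and the lysosomal protease cathepsin S gene, Ctss, 6248 ± 813 (4632 to 7622). Csf1r was at 6088 ± 677 (5008 to 7075), and Sparc, a secreted matrix protein, at 5196 ± 411 (4579 to 5785). The levels of Ctss and Csf1r differed by less than 1 SD, as did those of Sparc, C1qb (5113 ± 573) and C1qc (4850 ± 704), so the order within each of these sets was not resolved by the spread over plates. Csf1r was above Sparc on all 12 plates.

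**Figure D1:**
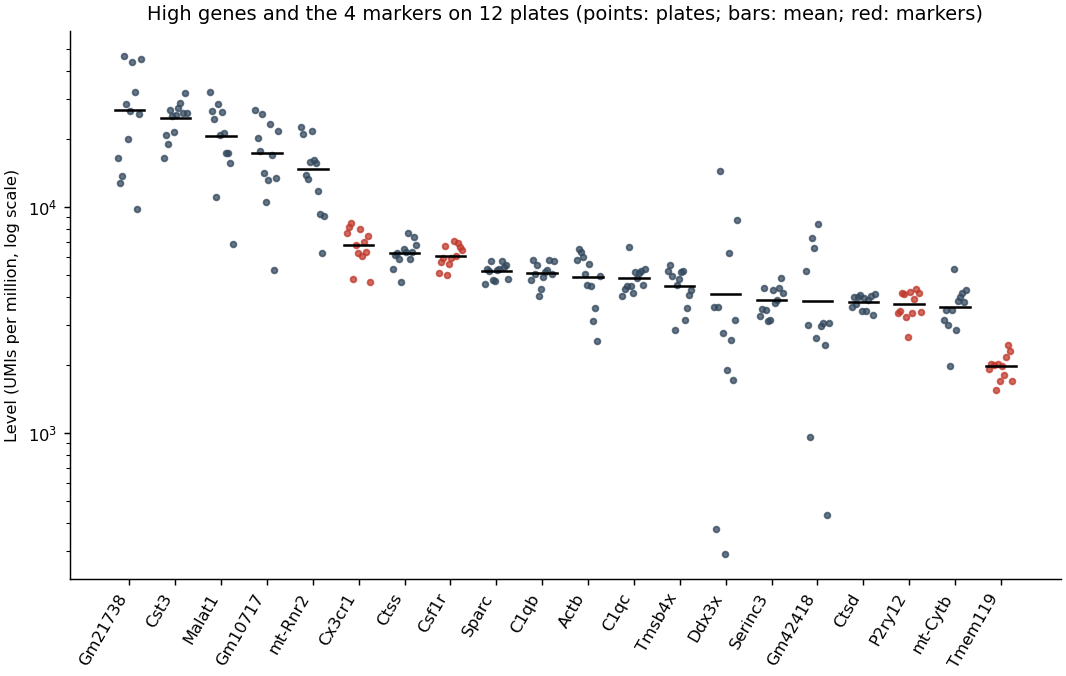
Levels of 19 of the 20 highest genes and of Tmem119 in CPM (log axis), with 1 point for each of the 12 plates, a bar at the mean, and the 4 marker genes in red. Cst3 and the markers keep within a narrow band on all plates, while Ddx3x runs from 292 to 14462 and Gm42418 from 433 to 8353.

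The remaining markers were lower but as even. P2ry12, which detects nucleotides released by injured cells, was at 3703 ± 514 (2654 to 4322, median 3698), and Tmem119 at 1968 ± 260 (1547 to 2447, median 1995). They were detected in 99.03% and 97.5% of cells, against the 99.9% and 99.1% that counting noise alone would give at their levels. Actb (4873 ± 1277) and Tmsb4x (4445 ± 874), which encode actin and an actin-binding peptide, Serinc3 (3858 ± 550), a membrane protein, and Ctsd (3802 ± 279), the aspartic protease cathepsin D, were also among the 20 highest genes, as were Ddx3x and mt-Cytb. The relative SD over plates had a median of 17.2% among the 100 highest genes. It was under 25% for 79 of them and over 50% for 6. Without the 5 cells with fewer than 3 markers, 19 of the 20 highest genes were the same.

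Several of the highest entries were not ordinary messages. Gm21738 (26701 ± 12930) and Gm10717 (17366 ± 6442) are predicted genes in satellite-like repeats, Gm42418 (3832 ± 2475) overlaps ribosomal RNA sequence, Malat1 (20647 ± 7400) is a nuclear long noncoding RNA, and mt-Rnr2 (14660 ± 5164) is the large ribosomal RNA of the mitochondrion. Reads of repeats can be split among near-identical copies, so the single values of such entries are uncertain. Ddx3x, an RNA helicase gene, averaged 4118 ± 4020, and the SD was nearly as large as the mean. The 20 highest genes held 17.9% of all UMIs and the 100 highest 29.9%, and 604 genes were needed for 50%. At least 1 UMI was present in 90% of cells for 66 genes, in 50% for 507 and in 10% for 4860, while 4724 genes were seen in under 1% of cells and 169 of the 17280 in the table had no UMI.

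Gene groups differed widely in how much of the transcriptome they took. The 26 microglial identity genes summed to 55002 ± 4127 CPM (47471 to 59502), and 25 of them were detected in 50% or more of cells. Next to them stood the 22 genes of the lysosome and cathepsins at 51845 ± 5583 (40318 to 59956), nearly as high, of which Cst3 alone gave 24579. Satellite-like and ribosomal RNA-like genes summed to 48071, transcripts of the mitochondrial genome to 34872, cytosolic ribosomal protein genes to 22115 and the actin list to 14102. The 10 complement genes in the table summed to 14014 ± 1458, almost all of it C1qb, C1qc and C1qa (2654 ± 658), the 3 chains of the first complement component. Of the transcription factors, Maf (1405 ± 255), Irf8 (1002 ± 148) and Mef2c (911 ± 231) were among the highest of 14 that summed to 7344 ± 991.

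Groups tied to activation spanned a wide range. The 8 genes in the table of MHC class I, which presents peptides from inside the cell, summed to 3893 ± 615 CPM, of which B2m gave 3059. H2-D1, H2-K1 and H2-Q7 of that list of 11 were not in the table. The 24 immediate early genes, which are transcribed within minutes of a stimulus, summed to 3322 ± 1951 with a highest plate of 8071. The 19 chemokine and cytokine genes summed to 1058 ± 242 CPM, led by Tgfb1 (202 ± 53.7), whose product maintains microglial identity, and by the monocyte-attracting chemokine gene Ccl12 (146 ± 149). Interferon response genes summed to 463 ± 230 over 15 genes, led by Bst2, a surface protein gene that tethers viruses, at 96.2 ± 35.8. The 5 genes of MHC class II in the table summed to 304 ± 259, of which H2-DMa, a peptide-loading factor, gave 174 ± 42.7. H2-Ab1 and H2-Aa, chains of the presenting molecule itself, were seen in 3.05% and 1.11% of cells. Proliferation genes summed to 359 ± 104, with 59.1% of cells holding at least 1 UMI and Tubb5, a tubulin gene, at 211 ± 37.0 as the largest term. Glycolysis genes summed to 1670 ± 350 and genes of the tricarboxylic acid cycle to 1192 ± 156, with no member of the latter detected in 50% of cells. The 14 disease-associated genes of the table, which rise in microglia around plaques, summed to 5094 ± 1792, with Trem2 (1203 ± 182) and Apoe (1152 ± 1668) as the largest terms.

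Cells in an equal state still give unequal counts, because each count samples a limited number of molecules. The excess squared coefficient of variation (excess CV2) removes this part. It is the spread of a gene's UMIs around the value expected from the cell's total and the gene's plate, minus the spread that counting alone gives, relative to the squared expectation. A value of 0 is counting noise only, and a value of 1 is a coefficient of variation of 100% beyond it. It was computed on each of the 11 plates with at least 20 cells (715 cells in all) for 2970 genes, and the mean over plates was compared with 0 by an exact two-sided sign-flip permutation test over plates with Benjamini-Hochberg adjustment. The smallest p this design allows is 0.000977, which gave an adjusted p of 0.00702. Plates that share an identifier are not fully independent.

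Variation beyond counting noise was widespread. Of 2970 genes tested, 1580, or 53.2%, were called with an excess above 0, and 413 genes, or 13.9%, were above 0 on all 11 plates. No gene was below 0 on all plates. The share called depended on how well a gene was counted. It was 41.9% of the 1954 genes with 0.2 to 0.5 UMI per cell and 100% of the 19 genes with 5 to 10 and of the 22 with 10 or more. With genes from 0.1 UMI per cell entered, 29.9% of 5330 were called, and with no filter 17.8% of 7388. The median excess was 0.615 in genes with 0.2 to 0.5 UMI per cell and 0.165 in those with 2 to 5. Among the 100 highest genes the median excess was 0.165, and 97 of the 99 tested were called. With the highest cell of each gene and plate left out, which lowers every estimate by construction, 185 genes were called. With every cell thinned to 1500 UMIs 129 were called, while the median excess was 0.437 against 0.4658 without thinning. Without plates 1 to 3 the count was 973, and without the 5 cells with fewer than 3 markers it was 1532.

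**Figure D2:**
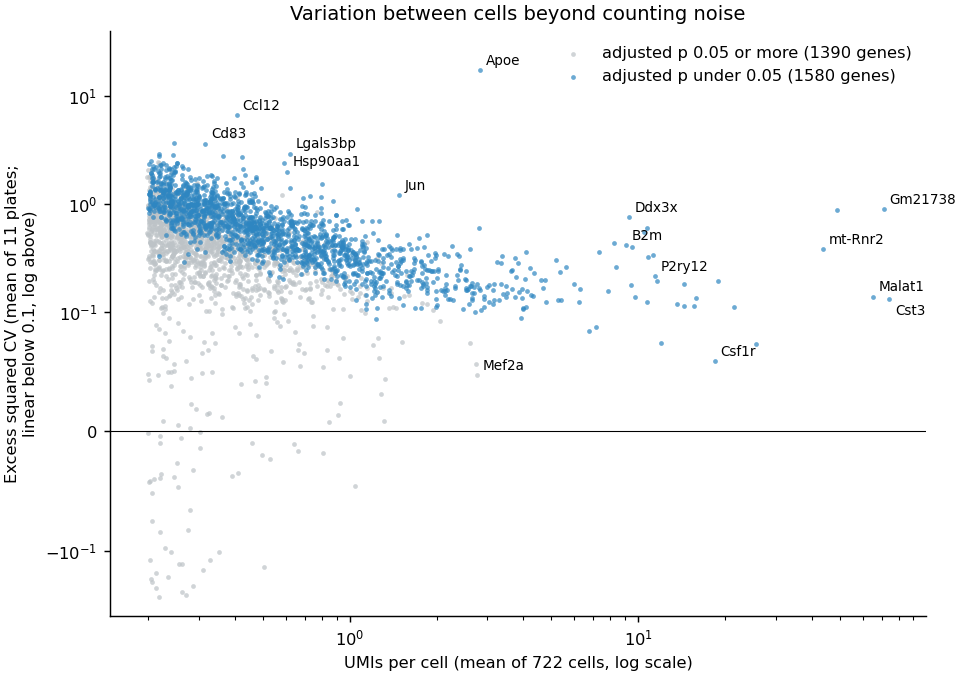
Excess CV2 (mean of 11 plates) against UMIs per cell (log axis) for the 2970 genes tested, with genes called at an adjusted p under 0.05 in blue and the others in grey. The excess falls as the level rises, Apoe stands alone at 17.4, and Csf1r lies low among the abundant genes at 0.059.

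The excess of the identity genes was close to the median of all well-counted genes. All 26 were called, beside 84.0%, 96% and 100% of all genes with 1 to 2, 2 to 5 and 5 to 10 UMIs per cell. Their median excess was 0.172, beside 0.165 for all genes with 2 to 5 UMIs per cell and 0.180 for those with 5 to 10. It was 0.4658 over all genes tested, most of which are rarer. Among the 100 highest genes, the 5 with the smallest excess included Mef2a, a transcription factor gene (0.047 ± 0.10, above 0 on 7 of 11 plates, adjusted p = 0.191 by the exact sign-flip permutation), Inpp5d, which encodes the lipid phosphatase SHIP1 (0.056 ± 0.085, 8 of 11 plates, permutation adjusted p = 0.0746), Csf1r (0.059 ± 0.074) and Serinc3 (0.074 ± 0.062). Csf1r and Serinc3 were above 0 on every plate. Plate 7, which holds 4 of the 5 cells with fewer than 3 markers, gave the highest excess of Csf1r (0.274), and its mean was 0.037 without that plate and 0.039 without the 5 cells. That of Mef2a was 0.028 without plate 8 and 0.029 without the 5 cells. For Mef2a and Inpp5d, variation beyond counting was not called over the 11 plates. Each was called with 1 plate left out, Mef2a without plate 13 (permutation adjusted p = 0.0411) and Inpp5d without plate 2 (0.0462). Of the markers, Cx3cr1 had an excess of 0.110 ± 0.077, Tmem119 of 0.123 ± 0.107 and P2ry12 of 0.213 ± 0.190 (0.116 to 0.748), each highest on plate 7. Without the 5 cells the means were 0.090, 0.104 and 0.192. Tmem119 lost its call when the highest cell was left out (permutation adjusted p = 0.0509) or cells were thinned (0.0862). Gpr84, a receptor for medium-chain fatty acids that rises on activation, had the largest value of the identity list at 1.70 ± 1.42.

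The genes that varied most were mostly rare ones with a few rich cells. Cd83, a surface protein gene of activated antigen-presenting cells, had the largest excess of the genes above 0 on every plate, 3.61 ± 2.88 (0.376 to 10.5). It was detected in 18.4% of cells where counting noise alone would give 25.9%, with up to 12 UMIs in a cell. Lgals3bp, a secreted glycoprotein gene induced by interferon, followed at 2.91 ± 3.40 (0.622 to 11.2), with 32.1% of cells against 43.7%. Its excess was highest on plate 6, where 1 cell held 11 of 25 UMIs, and its level was highest on plate 9 at 495 CPM.

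**Figure D3:**
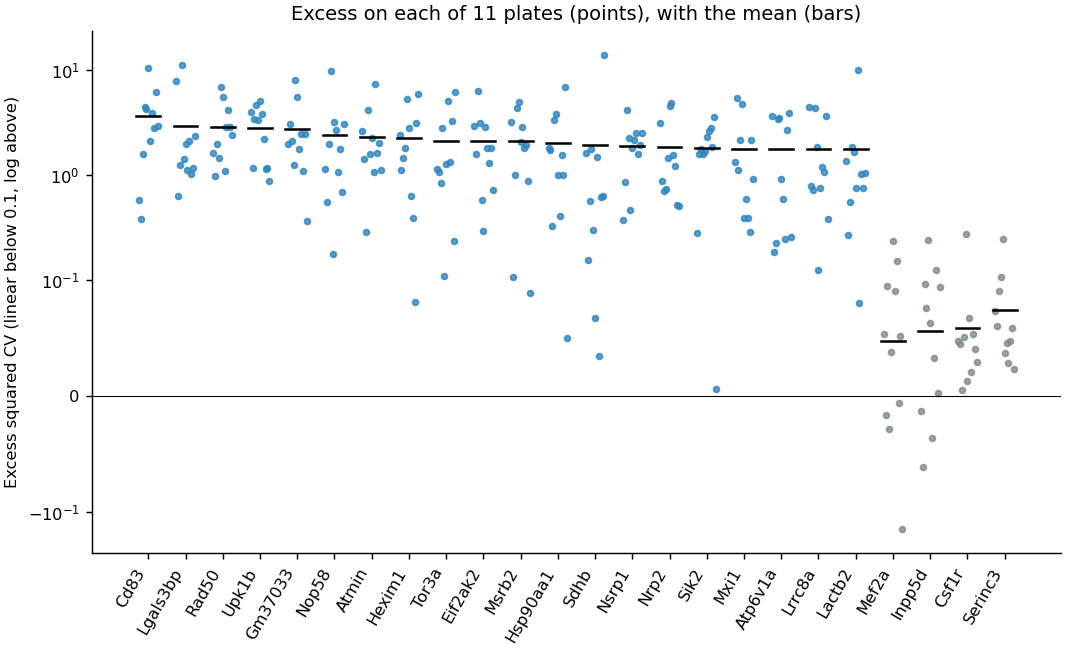
Excess CV2 on each of 11 plates (points, linear below 0.1 and log above) with the mean (bars), for the 20 genes with the largest excess among those above 0 on every plate (blue) and 4 of the 5 with the smallest among the 100 highest genes (grey). Cd83 spans 0.376 to 10.5, and Mef2a and Inpp5d have plates below 0.

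Next came Rad50 (2.89 ± 1.91), a DNA break repair gene, Upk1b (2.80 ± 1.54), a tetraspanin gene, and Gm37033 (2.72 ± 2.20), a predicted transcript inside Itpkb on the same strand whose reads cannot be told from that gene's. The other members of the 20, from 2.37 to 1.75, held genes of RNA handling and transcription (Nop58, Hexim1, Nsrp1, Mxi1), the interferon-induced kinase PKR (Eif2ak2, 2.11 ± 1.68) and interferon-induced torsin (Tor3a, 2.12 ± 2.01), the chaperone Hsp90aa1 (1.99 ± 2.02), a proton pump subunit (Atp6v1a, 1.77 ± 1.61), and Atmin, Msrb2, Sdhb, Nrp2, Sik2, Lrrc8a and Lactb2. Most had fewer than 0.4 UMIs per cell, and Sdhb, a subunit of succinate dehydrogenase, drew its mean of 1.92 from 1 plate at 13.95 with a median of 0.610 (0.722 without plate 13). The mean of Lactb2 was 0.928 without plate 9. These genes were chosen for their excess, so the values are a description. With the highest cell left out Cd83 was at 1.36 (permutation adjusted p = 0.0883), 14 of the 20 lost their call, and after thinning 16 did.

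Counts by group are read beside the 53.2% called of all genes tested, and beside 66.7% and 84.0% of the genes with 0.5 to 1 and 1 to 2 UMIs per cell. All 9 immediate early genes tested were called, with a median of 0.687. Nfkbia, the inhibitor of NF-kappaB, reached 2.38 ± 3.67, and Jun, a subunit of the AP-1 transcription factor, 1.21 ± 0.4926 with an excess above 0 on all 11 plates. Jun was also uneven between plates, from 0 UMIs in the 7 cells of plate 4 and 126 CPM on plate 9 to 1504 on plate 1, where 90.4% of cells held it. Both tested interferon response genes were called, among them Bst2 at 1.48 ± 1.41. Of the chemokine and cytokine genes, 5 of 7 were called with a median of 1.82, while Tgfb1 (0.188 ± 0.398, permutation adjusted p = 0.187) was not. Of the chaperones 9 of 12 were called, from Hsp90aa1 down to Hsp90b1 (0.123 ± 0.117).

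The lysosomal list had 21 of 22 members called with a median of 0.199, from the tetraspanin gene Cd63 at 0.913 ± 0.514 down to the protease legumain gene, Lgmn, at 0.0875 ± 0.0578. Complement genes had 5 of 6 called, C1qb and C1qc at 0.113 ± 0.101 and 0.112 ± 0.118, and C1qa at 0.261 ± 0.285. The actin list had 12 of 15, and the 14 transcription factors 10. Of the glycolysis genes 4 of 8 and of the tricarboxylic acid cycle genes 6 of 10 passed, near the 53.2% of all genes tested. Gapdh (0.163 ± 0.693) and Ldhb (0.173 ± 0.621) did not pass, and the medians of 0.797 and 0.736 for these lists came with low counts. Ribosomal protein genes lay below that share with 21 of 69, or 30.4%, called and a median of 0.230. All 8 mitochondrial transcripts tested were above 0 on every plate with a median of 0.367, and of the 4 satellite-like or ribosomal RNA-like genes tested 3 were called, with a median of 0.864.

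Apoe had the largest excess of any gene tested and was named after its values were seen. It encodes apolipoprotein E, the main lipid carrier of the brain, made in bulk by astrocytes. Its mean excess was 17.4 ± 13.02 (−1.02 to 36.8, above 0 on 9 of 11 plates, permutation adjusted p = 0.0138), and the call was lost with the highest cell left out (permutation adjusted p = 0.0509), after thinning (0.0610) and without plates 1 to 3 (0.0698). Its mean was 10.6, 18.1 and 15.9 in these settings, the last over 8 plates. Apoe was detected in 24.4% of cells, where counting noise alone would give 63.7%. The 31 cells with 10 or more Apoe UMIs, 4.29% of all, held 86.3% of its UMIs. They lay on 9 plates and in 11 identifiers, with 10 of the 50 cells of plate 9, 7 of the 50 of plate 7, 1 to 4 cells on each of the other 7, and 0 on plates 4, 11 and 12. The highest cell, on plate 9, held 211, while no cell of plates 11 and 12 held more than 1. Plates 9 and 7, where Apoe levels were 5648 and 3063 CPM against 19.7 to 1873 elsewhere, held 1 identifier each, so plate and identifier cannot be told apart there.

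**Figure D4:**
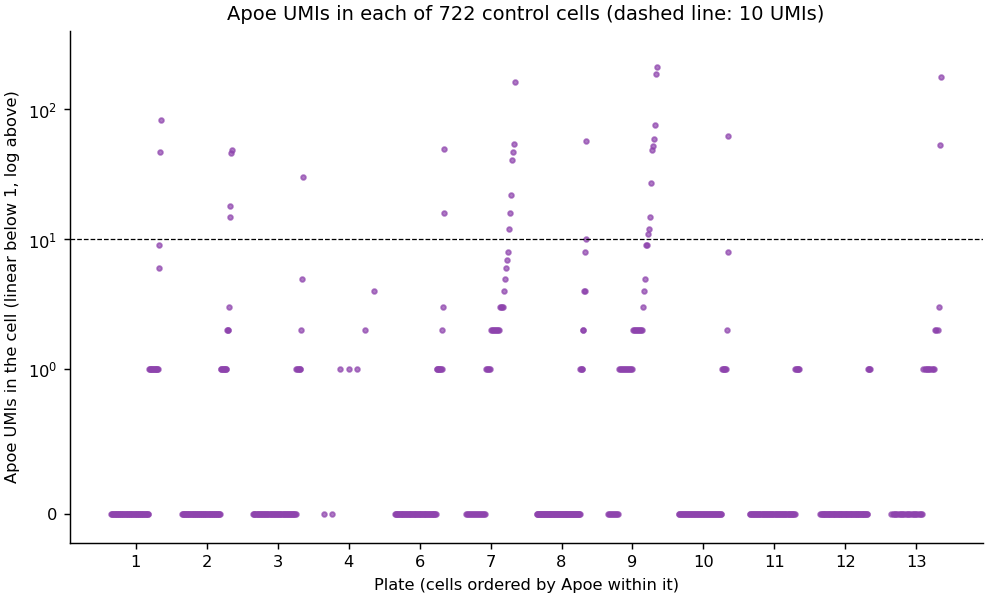
Apoe UMIs in each of the 722 control cells by plate (linear below 1 and log above), ordered by Apoe within each plate, with the dashed line at 10 UMIs. Most cells hold 0 or 1, and 31 cells on 9 plates lie at or above the line, up to 211 UMIs.

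The Apoe-rich cells differed from their neighbours in several messages, given as a description because these cells were chosen by their own counts. Over the 9 plates, B2m, the light chain of MHC class I, averaged 6846 ± 2181 CPM in Apoe-rich cells and 2737 ± 350 in the other cells, and was higher on 9 of 9 plates. Ctss was at 10701 ± 2411 against 5838 ± 761, also on 9 of 9, and Lgals3bp at 1145 ± 766 against 171 ± 67.4, on 8 of 9. Interferon response genes summed to 2013 ± 1688 against 384 ± 138 and Ccl12 stood at 1142 ± 1709 against 113 ± 128, each higher on 8 of 9 plates. In the other direction, P2ry12 was at 1595 ± 905 against 3722 ± 385 and Cx3cr1 at 5163 ± 1661 against 7144 ± 1141, and each was higher on 0 of 9 plates. Csf1r (5534 ± 1166 against 5944 ± 696) differed by less than its spread. Microglial identity genes summed to 45195 ± 7999 against 55276 ± 3407. Markers of border-associated macrophages moved with Apoe in part: 8 of the 31 cells, or 25.8%, held at least 1 such UMI against 5.64% of the other cells, and 3 cells held 3 or more. Mrc1 averaged 110 ± 151 against 11.5 ± 9.17, higher on 4 of 9 plates. Ms4a7 (25.4 ± 76.1 against 5.07 ± 7.59), Pf4 (3.30 ± 9.89 against 1.01 ± 3.03) and Lyve1 (4.17 ± 12.5 against 4.94 ± 6.53) were each higher on 1 of 9. Median UMIs per cell were 3497 and 2723. Without the 5 cells with fewer than 3 markers, 30 Apoe-rich cells remained, with B2m at 7062 ± 2046 against 2744 ± 359, P2ry12 at 1622 ± 875 against 3754 ± 342, and the same number of plates higher for each gene and list named here. The 1 cell that left, rich in Ttr, held 12 Apoe UMIs. The part of the border-associated macrophage markers and of depth in the pattern was not tested.

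Genes that vary together within a plate were then sought. For each pair of 1008 genes with at least 0.5 UMI per cell, the deviations from expectation were correlated over the 43 to 85 cells of each plate, and a pair was counted when the mean correlation over the 11 plates was at least 0.2 and the correlation was above 0 on every plate. Cells of a plate share library and processing, and all genes of a cell share its total, so the correlations are a description with no p. Of 507528 pairs, 201, or 0.0396%, were counted, against a median correlation of 0.0032 and a 1st to 99th percentile of −0.092 to 0.112. They were 28 pairs of mitochondrial transcripts, 1 pair of satellite-like genes, and 172 others among 81 genes. With cells thinned to 1500 UMIs 80 pairs were counted, 73 of them among the 201. With ranks in place of values 1101 were counted, 129 of them among the 201, and the median correlation was 0.047. Of the 20 strongest of the 172, 17 stayed above 0 on every plate after thinning and 18 by ranks. Without the 5 cells with fewer than 3 markers 170 pairs were counted, 161 of them among the 201, and each of the 20 strongest of the 172 stayed above 0 on every plate.

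The strongest pairs joined genes of antigen handling, the lysosome and complement. B2m and Ctss had the highest mean correlation outside the mitochondrial and satellite-like pairs, 0.54 ± 0.07 (0.413 to 0.636 over 11 plates). Both were tied to Itm2b, a membrane protein gene that interferes with amyloid processing (Ctss 0.48 ± 0.14, B2m 0.46 ± 0.10). C1qa and C1qc, 2 of the 3 C1q genes that lie within 18675 bases of chromosome 4 (136880129 to 136898803, GRCm38, in the order C1qb, C1qc, C1qa), correlated at 0.45 ± 0.11 (0.280 to 0.687), and C1qb and C1qc at 0.41 ± 0.18 (0.061 to 0.716). Cst3 was paired with Ctss (0.45 ± 0.14), C1qb (0.44 ± 0.10) and Sparc (0.41 ± 0.07). Cst3 and Ctss each entered 21 pairs, C1qb 20, Itm2b 15 and B2m 13. Of the 21 pairs of Cst3, 13 were counted without the 5 cells with fewer than 3 markers, and of those of Ctss 19. All are abundant genes, for which counting noise is smallest.

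The promoters of 5 of these genes are shown because their messages moved together in the pairs B2m with Ctss, Cst3 with C1qb and C1qb with C1qc. Each is the 250 bases before the RefSeq start in GRCm38.p6, 5′ to 3′ on the gene's own strand. The starts of Cst3 and C1qc in GENCODE M21 (148875692 and 136893065) lie within the stretches shown, and that of B2m (122147686) is the last base shown. Capitals mark GAGGAA, the core bound by the macrophage factor PU.1, or GAAANNGAAA, an element like those bound by interferon regulatory factors, searched on both strands with no overlap found between them. In C1qc the core lies on the reverse strand and reads TTCCTC.
B2m promoter, chr2:122147437-122147686, plus strand: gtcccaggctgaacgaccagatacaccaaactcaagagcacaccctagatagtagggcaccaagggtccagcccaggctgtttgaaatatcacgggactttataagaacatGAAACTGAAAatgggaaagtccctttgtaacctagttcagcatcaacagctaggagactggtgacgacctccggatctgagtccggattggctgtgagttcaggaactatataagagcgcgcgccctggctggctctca
Ctss promoter, chr3:95526536-95526785, plus strand: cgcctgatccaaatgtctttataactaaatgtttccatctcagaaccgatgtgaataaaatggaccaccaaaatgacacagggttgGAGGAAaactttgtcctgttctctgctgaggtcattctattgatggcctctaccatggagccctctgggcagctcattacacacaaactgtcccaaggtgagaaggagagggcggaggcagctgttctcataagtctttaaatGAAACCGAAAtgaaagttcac
Cst3 promoter, chr2:148875513-148875762, minus strand: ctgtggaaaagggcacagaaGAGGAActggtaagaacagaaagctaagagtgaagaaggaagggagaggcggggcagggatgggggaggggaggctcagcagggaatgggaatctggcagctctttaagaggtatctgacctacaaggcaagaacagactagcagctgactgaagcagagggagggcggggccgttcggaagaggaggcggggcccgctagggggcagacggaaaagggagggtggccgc
C1qb promoter, chr4:136886201-136886450, minus strand: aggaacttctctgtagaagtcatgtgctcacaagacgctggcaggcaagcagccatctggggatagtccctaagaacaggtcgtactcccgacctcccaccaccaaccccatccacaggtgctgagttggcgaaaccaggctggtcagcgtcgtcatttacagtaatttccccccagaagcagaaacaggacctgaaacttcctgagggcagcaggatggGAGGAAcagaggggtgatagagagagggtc
C1qc promoter, chr4:136892915-136893164, minus strand: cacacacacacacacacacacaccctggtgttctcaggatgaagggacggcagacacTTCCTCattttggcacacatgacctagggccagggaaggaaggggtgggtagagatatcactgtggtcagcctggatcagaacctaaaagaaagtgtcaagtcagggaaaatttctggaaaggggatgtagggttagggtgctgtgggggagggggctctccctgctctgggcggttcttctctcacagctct

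GAGGAA was found in 6 of the 14 genes of the 20 strongest pairs that had a promoter entry (Apoe, C1qb, C1qc, Cst3, Ctss and Sepp1), and in 25.8% of 27025 genes, or 23.2% of 32851 promoters, of the same length. GAAANNGAAA was found in 3 of the 14 (B2m, Ctss and Sepp1) and in 3.46% of genes, or 2.98% of promoters. In B2m it lies 139 to 130 bases and in Ctss 21 to 12 bases before the start. Both motifs were chosen with these promoters in view, and a match is not evidence of binding.

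A second set of pairs joined B2m to Lgals3bp (0.42 ± 0.23, 0.133 to 0.797) and to Apoe (0.39 ± 0.23, 0.067 to 0.802). Apoe was further paired with Ctss (0.33 ± 0.22), with Cd63 (0.31 ± 0.23) and with Ly6e, an interferon-inducible surface protein gene (0.25 ± 0.13). By ranks, Apoe with B2m was at 0.054, B2m with Lgals3bp at 0.157 and B2m with Ctss at 0.42. Apoe had no UMI in most cells, so its ranks are mostly tied. Among the identity genes 17 of 300 pairs were counted, beside 0.0396% of all pairs. P2ry12 was paired with Sparc (0.32 ± 0.12), the lysophospholipid receptor gene Gpr34 (0.30 ± 0.10) and the selectin ligand gene Selplg (0.30 ± 0.11), and Tmem119 with Selplg (0.30 ± 0.10). The 6 pairs of the 4 markers had mean correlations of 0.18 to 0.23 and were above 0 on 10 of 11 plates each, so none was counted. Without the 5 cells these were 0.15 to 0.21, again above 0 on 10 of 11 plates each.

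**Figure D5:**
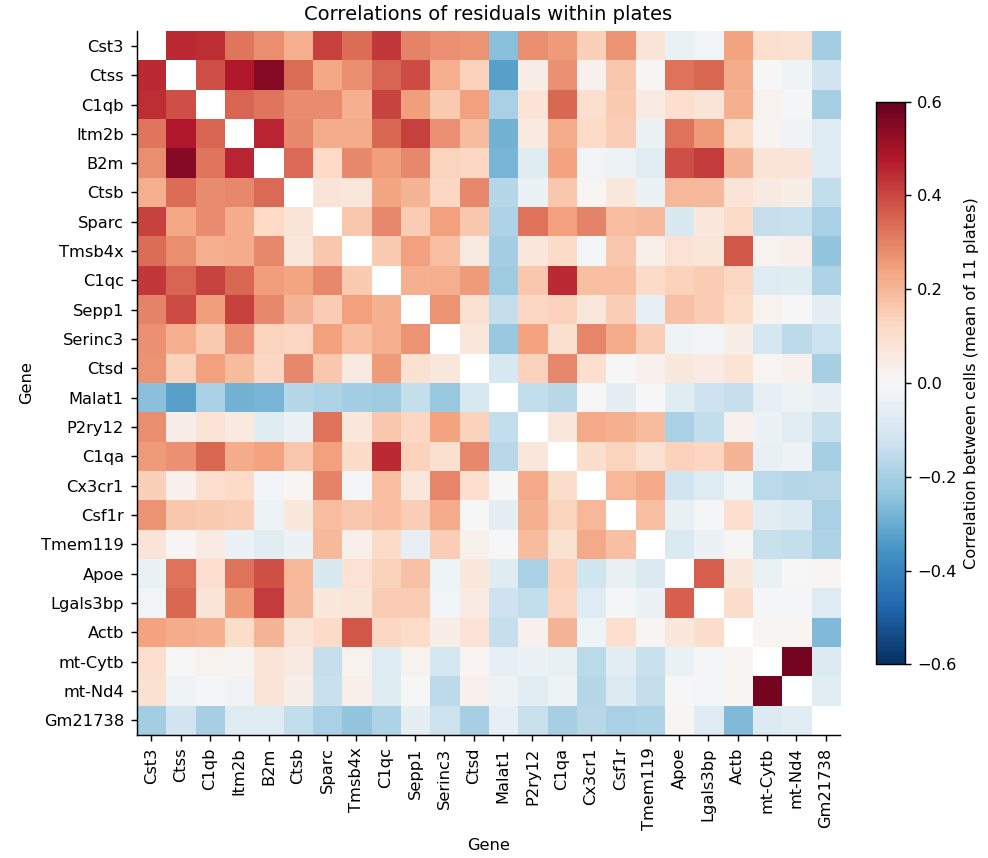
Mean over 11 plates of the within-plate correlation of residuals between cells, for 24 genes on both axes (red above 0, blue below). Cst3, Ctss, C1qb, Itm2b and B2m form a red block up to 0.54, Apoe and Lgals3bp are red against B2m, Ctss and Itm2b, and Malat1 and Gm21738 are blue against most of it.

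Housekeeping groups formed their own pairs. All 28 pairs of the 8 mitochondrial transcripts with sufficient counts were counted, from 0.40 (mt-Co1 with mt-Rnr1) to 0.71 (mt-Rnr1 with mt-Rnr2, neighbours on the same precursor). Gm10717 and Gm21738 followed each other at 0.96 ± 0.02. Reads of such repeats can be split between copies. Actb and Tmsb4x correlated at 0.37 ± 0.16. Of 1596 pairs of ribosomal protein genes 7 were counted, the highest at 0.24, and 2 of the 7 were counted without the 5 cells with fewer than 3 markers. The chaperone genes Hsp90ab1 and Hspa8 (0.24) and Hsp90aa1 and Hsp90ab1 (0.23) made up the 2 counted pairs of 36 in their list.

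Opposed variation was rare. The rule with its sign turned counted 4 pairs, or 0.000788%: Actb with Gm21738 (−0.26 ± 0.13) and with Gm10717 (−0.26 ± 0.14), Malat1 with Rpl7 (−0.20 ± 0.16), and C1qb with Gm10717 (−0.20 ± 0.13). Since levels are shares of a cell's total, a gene that takes a large share lowers the others by construction. With the satellite-like and ribosomal RNA-like genes and Ddx3x taken out of the total, Malat1 with Rpl7 (−0.22) was the 1 opposed pair still counted, and the means of the other 3 were −0.19, −0.19 and −0.11. The lowest mean correlation was that of Malat1 with Ctss (−0.32 ± 0.18), which was above 0 on 1 plate and therefore not counted. Malat1 was paired with Srrm2 (0.26 ± 0.17), Rbm25 (0.22 ± 0.09) and Rbm39 (0.21 ± 0.11), genes of nuclear RNA splicing, in 3 of its 8 counted pairs. Of the 8, 5 were counted without the 5 cells with fewer than 3 markers, and the pair with Rbm25 was not among them.

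How much baseline levels differed from plate to plate was tested on UMIs summed per identifier and plate. Sums of at least 5 cells on the 6 plates with at least 2 sums entered (22 sums of 14 identifiers, 9 to 33 cells and 24115 to 98585 UMIs each), and edgeR's quasi-likelihood F test was used with Benjamini-Hochberg adjustment. Of 1451 genes tested, 107, or 7.37%, differed between plates, and DESeq2 called 75. Since 4 identifiers recur on plates 10 to 12, these sums are not all independent. Plates 6 and 8 held cells named for 9 weeks, plates 10 to 12 for 24 weeks and plate 13 for 14 and 24 weeks. Outside plates 10 to 12 each identifier lay on 1 plate, so plate and identifier cannot be told apart there. Without plate 13 the count was 68 of 1832 tested.

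Of the 26 identity genes 1 was called, beside 7.37% of all genes, so the count was near that of genes at large. It was Cx3cr1 (edgeR adjusted p = 0.0149), while P2ry12 (edgeR adjusted p = 0.507), Tmem119 (0.484) and Csf1r (0.339) did not pass, nor did Cst3 (0.298). A p that misses the threshold does not show equal levels. Of the lysosomal genes 5 of 21 were called (Ctss, Laptm5, Grn, Man2b1 and Cd63), of complement C1qa of 5, of MHC class I B2m and H2-T23 of 4, of the immediate early genes Jun (edgeR adjusted p = 0.000144) and Junb of 9, and of the chaperones Hspa5, Hsp90ab1 and Hsp90b1 of 9. Apoe and Ccl12 were called, with Actb and Tmsb4x of the 14 actin genes. None of the 6 glycolysis genes tested was called, a number too small to read against 7.37%.

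The 10 genes with the smallest p were mostly noncoding. Gm43333, a predicted transcript inside Gm17660 on the same strand, averaged 8376 and 7553 CPM on plates 6 and 8 and 11.5 to 61.7 on plates 10 to 13, with no overlap of sums (edgeR adjusted p = 4.16e-62). Plates 6 and 8 are those named for 9 weeks in this test, and their deposited tables also list 22063 genes against 27462 for plates 10 to 13. The part of this difference between the tables in the result was not tested. Gm42418 (428 on plate 12 to 8357 on plate 8), Malat1 (6744 on plate 13 to 28266 on plate 6), Gm37376 on the opposite strand of Malat1 (42.8 to 551) and Adap2os on the opposite strand of Adap2 (41.3 to 427) were also highest on plate 6 or 8. The mitochondrial transcript mt-Co1 ran the other way, 316 and 397 on plates 6 and 8 against 1562 to 2274 on the others. Pvt1, a noncoding RNA gene next to Myc, stood at 361 on plate 10 and at 6.45 to 39.2 on the others. Ddx3x was at 8100 on plate 13 against 1665 to 3106 on the others, and Gm21738 and Gm10717 were lowest on plate 11 (10127 and 5636) and highest on plate 13 (44203 and 20789). All 4 satellite-like or ribosomal RNA-like genes tested and 4 of the 8 mitochondrial transcripts were called.

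Plates 10 to 12 held the same 4 identifiers, so plate and identifier could be separated there. Among these plates 30 of 1331 genes differed with the identifier as a block and 30 without it. Between the 4 identifiers, with the plate as a block, 6 of 1523 genes, or 0.394%, differed by edgeR's quasi-likelihood test, a comparison added after seeing the data. DESeq2 called 0, with 30 genes at an unadjusted p under 0.05 against 118 by edgeR. Zeb2, a transcription factor gene that keeps macrophage identity, was at 332 ± 82.4 CPM in M1 (297, 272 and 426 on the 3 plates) against 739 ± 106, 701 ± 77.4 and 675 ± 111 in M2, M3 and M4, with no overlap (edgeR adjusted p = 0.0106). Itm2b ran from 2445 ± 163 in M4 to 3995 ± 487 in M1 (edgeR adjusted p = 0.0490). Ddx3x, Gm21738, Gm10717 and Arhgap5 were the other 4. Whether an identifier is 1 mouse is not known, so these are differences between the identifiers' wells.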

How the data were processed

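The authors sorted single cells into plates, sequenced them by CEL-Seq2 and, per the submitters' processing notes, mapped reads to GRCm38 (mm10) with STAR and counted them with featureCounts. The authors deposited estimated counts per gene and well, that is, UMIs adjusted upward for tags drawn more than once, without normalization. With 4096 possible tags every value above 0 (100%, tolerance 0.001) turned back into a whole number of UMIs, and these were analysed. Groups came from the authors' table of wells (diet, plate, identifier, inclusion), with M identifiers split by the letters and weeks in the cell names. The filtered table of 17280 genes set the genes, and in the 616 cells whose names matched it held the same values as the plate tables. Of its columns, 227 belonged to other cells and were not used, and no column of the authors' own comparisons was used.

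The 2 cell-level measures used plates with at least 20 control cells. Excess variation used genes with at least 0.2 UMI per cell and a UMI on every plate (2970 of 2980), and pairs used those with 0.5. Sums were tested by edgeR 4.0.16 (quasi-likelihood, TMM, its default filter) and DESeq2 1.42.0 in R 4.3.3, and the rest ran in Python 3.11.15 with numpy 2.4.6, pandas 2.3.3 and scipy 1.17.1. With few identifiers per plate, p-values measure the spread between sums of wells. Scripts were tested on simulated data. Doublets were not called, and whether each well held 1 cell, as the sort intended, was not tested.

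The members and all lists were chosen with earlier results of these data known. Named genes are the 4 markers and 20 highest genes, the 20 with the largest excess of those above 0 on every plate, the 5 with the smallest excess of the 100 highest, the genes of the 20 strongest pairs, the 10 with the smallest p between plates, and up to 4 of the highest of each list. Other names, among them Apoe and Ccl12 in the account of variation, were chosen after their values were seen. Alternatives covered the filter, the total, thinning, ranks, the log scale, the identifier within the plate, cells with other markers, the tool and each plate left out. Gene places are those of GENCODE M21. Proteins and other parts of the genome were not used here. Some genes that these rules select are not reported here, and the counts and sums of lists include them.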

Additional observations from a re-analysis of the deposited data

Results flagged for a closer look

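Of 16 groups of 4 or 6 means examined for a value far from the others, 3 had one. Chance gives about 1 in 20 for groups not chosen by their values, a rate that does not apply here, since these genes were taken for differing between plates or identifiers. Zeb2 was at 332 CPM in identifier M1 on plates 10 to 12, apart from 675 to 739 in the other 3. Ddx3x averaged 8100 CPM on plate 13, apart from 1665 to 3106 on the other 5 plates of the test. Pvt1 averaged 361 CPM on plate 10, apart from 6.45 to 39.2 on the others.

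The plate tables also hold genes that the filtered table does not, and in the control cells these took 21.2% of all UMIs over 7767 genes. Most of that came from satellite-like predicted genes, with Gm10800 at 8.48%, Gm10801 at 7.66% and Gm26870 at 2.43% of all UMIs. Ttr gave 0.108% of all UMIs, all on plate 7. H2-D1, a heavy chain gene of MHC class I, gave 0.0395%. The causes of these values were not tested.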

How the results depend on the processing

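No level, excess value, correlation or count for which alternatives were run turned its direction under them. List sums and detection shares had none, and the values of Apoe-rich cells had 1. The count of 1580 genes with excess variation was 813 with at least 0.5 UMI per cell (of 1008 tested, all 758 of the called genes still tested among them), 185 with the highest cell of each gene and plate left out, 129 after thinning to 1500 UMIs and 973 without plates 1 to 3, and with each plate left out in turn it ran from 1261 to 1529. With at least 0.1 UMI per cell the count was 1594 of 5330 genes, and with no filter 1314 of 7388. Of the 201 pairs, 73 were among the 80 counted after thinning and 129 among the 1101 counted by Spearman correlation. With each plate left out 196 to 249 pairs were counted. Genes differing between plates numbered 107, and 68 to 112 with each plate left out (68 without plate 13), while plates 10 to 12 alone with the replicate block, which pairs the shared identifiers, gave 30. Between identifiers DESeq2 called 0 genes where edgeR called 6 (30 and 118 at an unadjusted p under 0.05), and leaving out a plate gave 5 to 7. Between 18 and 20 of the 20 highest genes were kept with each plate left out. Fewer genes, cells or UMIs enter by construction when the filter is raised, cells are thinned or plates are dropped. For the other changes the cause was not tested.

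Of the 30 named genes with an excess value, 20 lost their call under at least 1 alternative (37 lost calls in all) and 2 gained it when 1 plate was left out (Inpp5d without plate 2, adjusted p = 0.0462, and Mef2a without plate 13, 0.0411, by the exact permutation). With totals over all genes of the plate tables, the level of P2ry12 was 2881 CPM and that of Cst3 19025, below the values given. A gene with 0.2 UMI per cell is missed in most cells at this depth, so variation of rare genes rests on few cells.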

Other observations

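Ccl12, the monocyte-attracting chemokine gene, had the second largest excess of all genes tested, 6.67 ± 4.35 (above 0 on 10 of 11 plates, permutation adjusted p = 0.0117, and 0.118 with the highest cell left out). It was detected in 14.8% of cells, where counting noise alone would give 29.0%, and 1 cell of plate 13 held 29 of that plate's 57 UMIs. Its level ran from 0 on plate 4 and 13.7 CPM on plate 3 to 425 on plate 13 and 453 on plate 7. The 1 tested member of the proliferation list, Tubb5, had an excess of 0.422 ± 0.647 (permutation adjusted p = 0.0429).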
